A study of Mus musculus with 10 samples.

Results

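The genes of the mouse mitochondrial genome were examined in RNA from the RPE/choroid complex, that is, the pigmented cell sheet behind the retina together with the vascular tissue beneath it. They were taken as every entry of the count table whose symbol begins with mt-, counted once per Ensembl gene, which gave 37 of 55487 genes: 13 protein_coding genes, 2 Mt_rRNA genes and 22 Mt_tRNA genes. The libraries fell into 5 of control mice, genotype iDTR, and 5 of iDTR Adiponectin-Cre mice, called ADQ after their sample names. The iDTR allele places a diphtheria toxin receptor in the Rosa26 locus, to be switched on by Cre, and adiponectin-Cre drives Cre from the promoter of an adipocyte hormone gene. Both groups received diphtheria toxin by intraperitoneal injection, so the controls carry the receptor allele and the toxin but not Cre. For the mice with Cre the series text gives daily toxin for 7 weeks, and no duration is stated for the controls. Age, sex and the number of mice behind a library were not given in the sources used here, and the p-values reflect only how far these samples spread.

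Mitochondria keep a small circular chromosome of their own. Its messenger RNAs encode core subunits of respiratory complexes I, III and IV and of ATP synthase, and its ribosomal and transfer RNAs serve only the translation of those messages. Both strands are transcribed into long precursors that run through many genes, and the tRNAs lying between the other genes mark the points at which the precursors are cut. All other mitochondrial proteins, among them the polymerase, the processing enzymes, the ribosomal proteins and most respiratory subunits, come from nuclear genes. The retinal pigment epithelium is rich in mitochondria and supports the photoreceptors that lie on it.

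Sequence matters to these counts because the nuclear genome holds copies of mitochondrial DNA, and a short read from a mitochondrial transcript may match such a copy equally well. Aligning the transcripts of the 37 genes to nuclear transcripts of the GENCODE M21 annotation (build GRCm38, the build named in the submitters' processing notes) gave 21 nuclear copies with at least 1 count, 11 of them at least 95% identical over an alignment of 100 bases or more. On chromosome 1, 7 annotated pseudogenes followed each other in mitochondrial gene order on the minus strand at chr1:24611535-24616197. They matched the mitochondrial interval chrM:6390-11042, which runs from within mt-Co1, the catalytic subunit of complex IV, to within mt-Nd4, a membrane subunit of complex I. Alignments shorter than 100 bases were not kept. The tRNA genes are 59 to 75 bases long, so no copy of them could be found. Of the 11 near-identical copies, 5 had no differing base over their aligned length. The next sequences show how little separates gene and copy in this interval, with the base that differs in capitals and positions counted from 1 at the 5′ end of the mitochondrial gene.
mt-Co1, chrM:6390-6449, plus strand, positions 1063 to 1122: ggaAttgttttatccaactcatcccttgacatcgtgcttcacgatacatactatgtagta
Gm29216, chr1:24616129-24616188, minus strand: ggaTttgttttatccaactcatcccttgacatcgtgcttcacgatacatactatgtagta
Gm13340, chr2:22588526-22588585, minus strand: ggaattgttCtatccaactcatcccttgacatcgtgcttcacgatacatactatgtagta
mt-Nd3, chrM:9459-9518, plus strand, positions 1 to 60: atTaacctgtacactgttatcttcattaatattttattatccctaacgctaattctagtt
Gm28438, chr1:24613060-24613119, minus strand: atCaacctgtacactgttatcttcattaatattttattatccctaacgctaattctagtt
mt-Co2, chrM:7013-7072, and its copy Gm28661: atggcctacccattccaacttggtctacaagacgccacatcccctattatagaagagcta
Within these windows Gm29216 differed from mt-Co1 by A1066T, Gm13340 by T1072C, and Gm28438 from mt-Nd3 by T3C. The first 60 bases of mt-Co2, the electron-entry subunit of complex IV, stand in Gm28661 without a change.

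The 10 libraries held 43591245 to 64087660 counts. Markers of the pigment epithelium were present in every library, with Rpe65, the visual cycle isomerase, at 2021 to 3031 CPM (read counts scaled to a common library size, here with edgeR's TMM factors), while Best1 stayed between 3.82 and 5.50 CPM. Markers of other tissues moved between libraries: the summed rod markers ran from 294 to 1661 CPM in controls and from 298 to 3340 in ADQ, and the summed skeletal muscle markers from 1153 to 2699 and from 349 to 1892, and none of these 8 and 8 genes passed the test. The summed T cell markers did not overlap, at 17.4 to 41.5 CPM in controls and 43.3 to 62.5 in ADQ, with none of 5 called. Of 5 macrophage markers, 2 were called higher in ADQ (sums of 935 to 1123 and 951 to 1401 CPM). Over all genes tested, 0.74% were called higher in ADQ, and 2.09% had an ADQ range wholly above that of controls. Surface epithelium markers ranged from 1.72 to 1945 CPM in controls and from 0.371 to 1.66 in ADQ, with none of 3 tested called. In edgeR fits with the rod or the skeletal muscle markers as a covariate no mitochondrial gene passed, with smallest adjusted p of 0.556 and 0.411. The part of the other markers of this paragraph in the mitochondrial values was not tested. Adipoq, the gene whose promoter drives Cre, was at 4.36 ± 2.85 CPM in controls and 0.923 ± 0.614 in ADQ (SD, n = 5 each) and had 0 counts in control 5. No 2 libraries agreed within sampling noise: the smallest chi-square per degree of freedom over the 45 pairs was 33.9.

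In the share of all counts that fell on the mitochondrial genome, the ADQ and control libraries covered much the same range. The share was 2.01, 1.42, 1.06, 1.75 and 1.60% in controls 1 to 5 and 1.87, 1.46, 0.980, 1.23 and 1.18% in ADQ 1 to 5. Control 1 and ADQ 1 stood highest, control 3 and ADQ 3 lowest in their groups, and 4 of 5 ADQ libraries lay below the control mean. The mean was 1.57 ± 0.356% in controls and 1.34 ± 0.341% in ADQ, a difference of -0.225 percentage points that is smaller than either SD. It was -0.358 without ADQ 1 and -0.353 without control 3, but -0.116 without control 1 and -0.135 without ADQ 3. In bulk tissue, fewer cells of a mitochondria-rich type and less mitochondrial RNA per cell cannot be told apart in such a share. Most of these counts lay on the protein-coding genes, with 1.15 ± 0.244% in controls and 1.01 ± 0.239% in ADQ. The 2 rRNA genes took 0.420 ± 0.115% and 0.331 ± 0.104%. The 22 tRNA genes together took 0.00058 ± 0.000149% in controls and 0.000715 ± 0.00011% in ADQ.

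**Figure D1:**
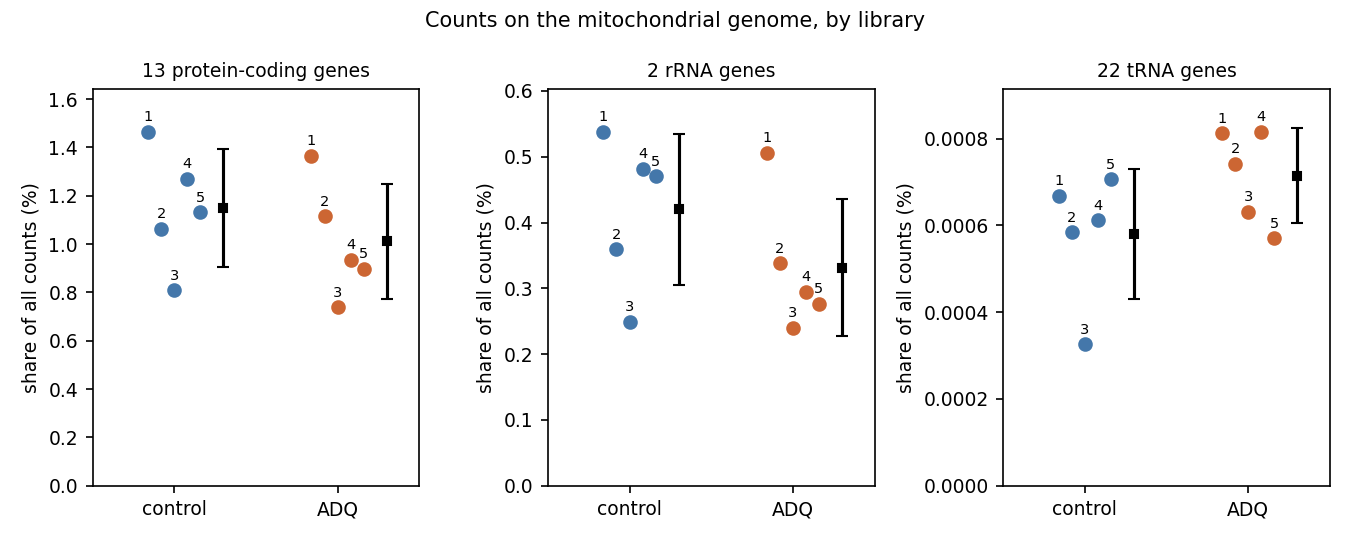
Share of all counts per library (%, vertical axes from 0) on the protein-coding, rRNA and tRNA genes of the mitochondrial genome, in control and ADQ; numbered points are libraries, and black squares with bars are group means ± SD (n = 5). The groups overlap in each class, with library 3 lowest among the controls in all 3 panels, and the tRNA axis reaches only about 0.0008%.

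Some measures of the libraries moved in part with this share. The summed rod and skeletal muscle markers did not follow it, being highest in ADQ 5 and control 4. The slope of expression on transcript length, which is the change in a library's log2 CPM relative to the gene means for each doubling of length, was most positive in control 3 (0.135), ADQ 3 (0.0913) and ADQ 5 (0.0522), the 3 libraries with the lowest mitochondrial shares. It was most negative in ADQ 1 (-0.109) and control 1 (-0.0917), those with the highest. The summed level of 8 pigment epithelium markers was 33501 to 48606 CPM in controls and 28556 to 43199 in ADQ, highest in control 1 and lowest in ADQ 3, which also hold the highest and lowest mitochondrial shares. The part of the slope and of the epithelial markers in the mitochondrial values was not tested beyond the edgeR fit with the slope as a covariate. Under that fit none of the 22 tested genes passed, and the smallest adjusted p was 0.107.

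No mitochondrial gene passed the test between ADQ and control. Of the 37, 22 had enough counts to be tested (13 protein-coding, 2 rRNA, 7 tRNA), and 0 of these 22 passed in edgeR's quasi-likelihood test at a Benjamini-Hochberg adjusted p of 0.05. Over all 20684 genes tested the same test called 171, or 0.827%, with 0.74% higher and 0.087% lower in ADQ, so the members' count of 0 is near that background. No member had an unadjusted p under 0.05, against 13.8% of all genes, and the smallest was 0.102. DESeq2 and limma's voom with quality weights also passed 0 of the 22, with 0 and 5 members at an unadjusted p under 0.05. The fit with the length slope as a covariate passed 0, with 6. Over all genes these fits called 773, 664 and 522. The 13.8% belongs to the group-only edgeR fit and is no background for their counts at an unadjusted p. Group ranges of CPM overlapped for each of the 37, where 2.09% of all tested genes had an ADQ range wholly above and 1.07% wholly below that of controls. The median log2 fold change was -0.02 over the 22 tested members, 12 below 0 and 10 above, beside a median of 0.01 over all genes tested, of which 48.2% were below 0.

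**Figure D2:**
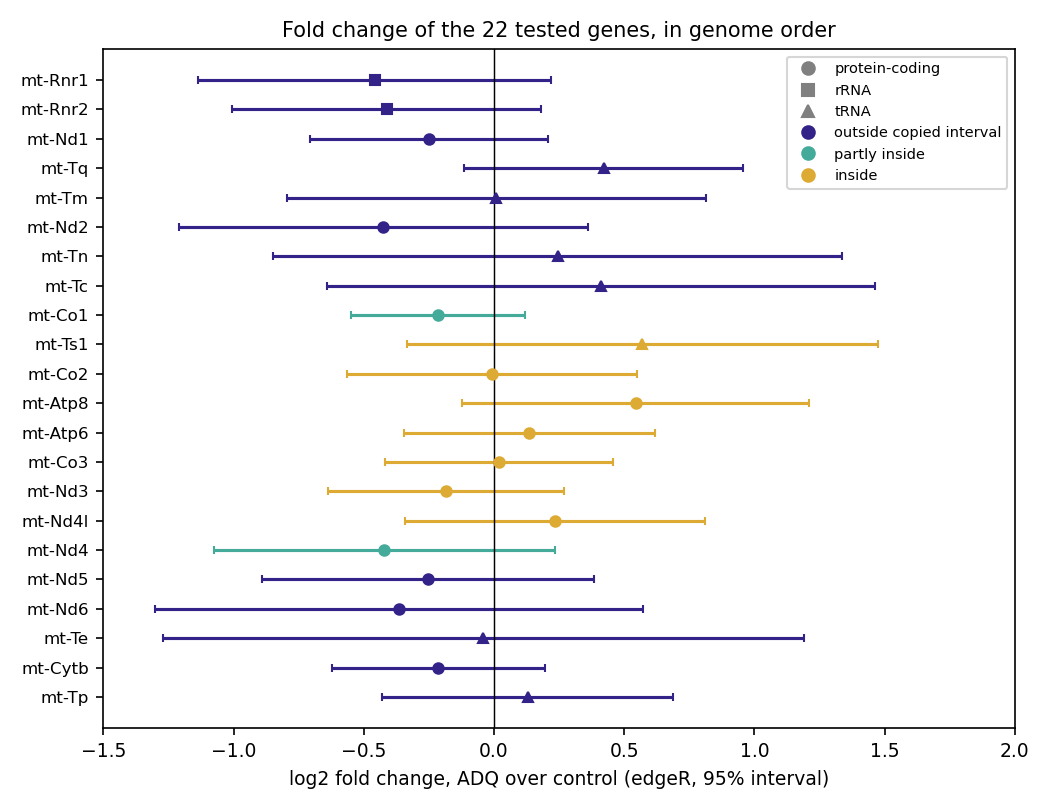
Log2 fold change of ADQ over control with its 95% interval (horizontal axis, edgeR) for the 22 tested genes in genome order; symbols give the class of gene and colours whether it lies inside the interval copied on chromosome 1. Every interval includes 0, and the point estimates run from -0.46 (mt-Rnr1) to 0.57 (mt-Ts1).

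By class, the median log2 fold change was -0.44 for the rRNA genes, -0.21 for the protein-coding genes and 0.24 for the tested tRNA genes. mt-Rnr2, the large ribosomal RNA (16S), at chrM:1094-2675, stood at 5476, 3349, 2253, 4607 and 4499 CPM in controls 1 to 5 and at 4978, 3057, 1967, 2609 and 2552 in ADQ 1 to 5. It was high in ADQ 1 and at or below 3057 in the other ADQ libraries, a level that only control 3 fell under among the controls. The log2 fold change was -0.41 with a 95% interval of -1.01 to 0.18 (adjusted p = 0.508, edgeR). mt-Rnr1, the small ribosomal RNA (12S), at chrM:70-1024, ran from 174 to 445 CPM in controls and from 159 to 404 in ADQ, with a log2 fold change of -0.46 (-1.14 to 0.22, adjusted p = 0.516, edgeR). In both, 4 of 5 ADQ libraries lay below the control mean. Without ADQ 1 the estimates were -0.66 for mt-Rnr2 and -0.72 for mt-Rnr1, and without control 1 they were -0.28 and -0.33. The interval for mt-Rnr2 covers folds from 0.498 to 1.13.

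The 7 complex I genes are mt-Nd1 to mt-Nd6 and mt-Nd4l, whose proteins build the proton-pumping membrane arm of NADH dehydrogenase. mt-Nd4, at chrM:10167-11544, was at 2409, 1469, 985, 1897 and 1703 CPM in controls 1 to 5 and at 2099, 1379, 699, 1114 and 1029 in ADQ 1 to 5. The groups overlapped through ADQ 1 and control 3, and the log2 fold change was -0.42 with an interval of -1.08 to 0.23 (adjusted p = 0.538, edgeR). mt-Nd2 followed nearly the same order of libraries, from 459 to 1219 CPM in controls and from 319 to 1079 in ADQ, with a log2 fold change of -0.42 (-1.21 to 0.36). mt-Nd1, which follows the rRNAs on the precursor, gave -0.25 (-0.71 to 0.21) and mt-Nd5, the largest of these subunits, -0.25 (-0.89 to 0.38). mt-Nd3 was much lower, at 14.4 to 31.5 CPM in controls and 13.7 to 26.0 in ADQ, with -0.18 (-0.64 to 0.27). mt-Nd4l had between 1.06 and 2.53 CPM in any library, and its fold change of 0.23 (-0.34 to 0.81) was the one above 0 in this complex. In mt-Nd1 to mt-Nd6 the size of the estimate rested on single libraries. It was most negative without ADQ 1 and nearest to 0 without control 1, at -0.41 and -0.12 for mt-Nd1, -0.72 and -0.24 for mt-Nd2, -0.32 and -0.02 for mt-Nd3, -0.68 and -0.26 for mt-Nd4, -0.50 and -0.08 for mt-Nd5, and -0.72 and -0.15 for mt-Nd6. mt-Nd4l shares 7 bases with mt-Nd4, so counts there depend on how reads over both genes were assigned.

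mt-Nd6 is the complex I gene on the minus strand, at chrM:13552-14070. It varied most among the complex I genes, by 4.05 times between its highest and lowest library. It stood at 696, 420, 212, 433 and 471 CPM in controls 1 to 5 and at 650, 424, 172, 269 and 219 in ADQ 1 to 5. ADQ 1 and ADQ 2 lay among the controls, ADQ 4 and ADQ 5 between the lowest 2 controls, and ADQ 3 below them all. The log2 fold change was -0.36 with an interval of -1.30 to 0.57 (adjusted p = 0.718, edgeR). Whether the counting used strand was not given in the sources used here, so reads of mt-Nd6 and of antisense precursor over the same bases cannot be told apart. Its neighbour mt-Nd5, on the opposite strand, shares 14 bases with it.

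Between their highest and lowest library, mt-Co1 and mt-Cytb varied least among the tested members, by 1.92 and 2.22 times. mt-Cytb, the haem-binding cytochrome b of complex III, at chrM:14145-15288, was at 3612, 2422, 1911, 2994 and 2728 CPM in controls 1 to 5 and at 3255, 2525, 1628, 2125 and 2252 in ADQ 1 to 5. Only ADQ 1 exceeded the control mean, and the log2 fold change was -0.21 (-0.62 to 0.20, adjusted p = 0.628, edgeR), or -0.36 without ADQ 1 and -0.09 without control 1. mt-Co1, at chrM:5328-6872, had a coefficient of variation of 19.1% in controls and 19.1% in ADQ, and gave -0.21 (-0.55 to 0.12, adjusted p = 0.546, edgeR). Its levels were 2106 to 3243 CPM in controls and 1688 to 2886 in ADQ. mt-Co2 and mt-Co3, whose proteins complete the core of cytochrome c oxidase, had fold changes of -0.01 (-0.57 to 0.55) and 0.02 (-0.42 to 0.46). For these 2 the means were nearly the same, 124 ± 42.2 against 123 ± 29.4 CPM for mt-Co2 and 222 ± 67.6 against 225 ± 36.3 for mt-Co3, and their intervals reach more than 0.4 on the log2 scale to either side of 0.

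The 2 ATP synthase genes lay on the other side of 0. mt-Atp8, a small subunit of the membrane part of ATP synthase, at chrM:7766-7969, was at 1.37, 1.01, 0.429, 0.776 and 0.956 CPM in controls 1 to 5 and at 1.51, 1.53, 1.11, 1.58 and 0.898 in ADQ 1 to 5. In 4 of 5 ADQ libraries it was above the control mean, and ADQ 5 lay below it. It had the smallest unadjusted p of all members (0.102, adjusted p = 0.446, edgeR), with a log2 fold change of 0.54 and an interval of -0.12 to 1.21. The gene had 551 counts over all 10 libraries and shares 43 bases with mt-Atp6, so some of its reads can be assigned to either. mt-Atp6, the proton channel subunit, had 70.2 to 178 CPM in controls and 109 to 177 in ADQ, and its log2 fold change was 0.14 (-0.35 to 0.62).

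**Figure D3:**
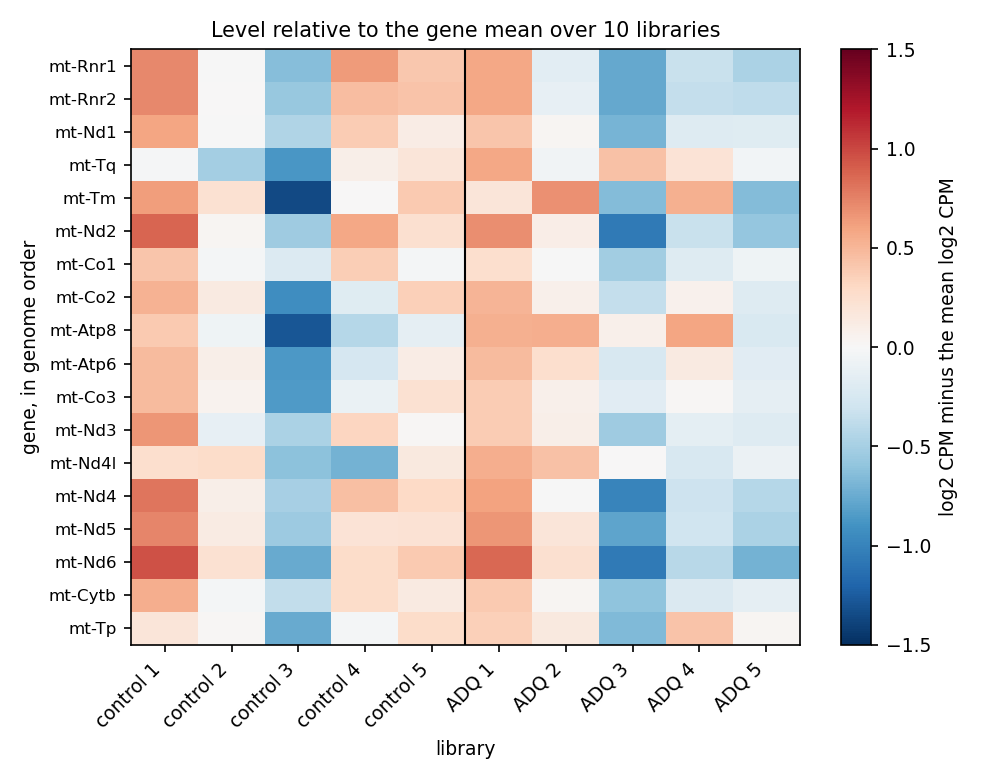
Log2 CPM minus its mean over the 10 libraries (colour) for the 18 tested genes whose mean reached 1 CPM (rows, genome order) in each library (columns; the line parts control from ADQ). Values run from -1.35 to 0.957; control 1 and ADQ 1 are high and control 3 low in most rows, and ADQ 3 is low in most genes outside the copied interval.

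The libraries differed among themselves more than the groups did, as the heat map of levels by library shows. Over the 9 rRNA and protein-coding genes that lie outside or only partly inside the interval copied on chromosome 1, the median deviation from the gene mean was 0.73 (log2) in control 1 and 0.59 in ADQ 1, against -0.54 in control 3 and -0.76 in ADQ 3. Over the 6 protein-coding genes inside it, control 3 was lowest at -0.86, while ADQ 3 was at -0.20. Control 3 therefore stood above ADQ 3 in the first group of genes and below it in the second. These medians are over genes of the same libraries and have no test.

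Levels per kilobase, which allow genes to be compared within a library, split the protein-coding genes by the same interval. The 5 genes outside it (mt-Nd1, mt-Nd2, mt-Nd5, mt-Nd6 and mt-Cytb) had means over 10 libraries of 639 to 2225 CPM per kilobase. mt-Co1 and mt-Nd4, which reach into it, had 1595 and 1073. The 6 genes inside it (mt-Co2, mt-Atp8, mt-Atp6, mt-Co3, mt-Nd3 and mt-Nd4l) had 5.48 to 286, so that even the highest of them, mt-Co3, was below the lowest outside. mt-Rnr2 was the highest gene of all at 2234 ± 792 CPM per kilobase (SD over 10 libraries), followed by mt-Cytb at 2225 ± 537, with means nearly the same. mt-Nd1 (1743 ± 469) and mt-Co1 (1595 ± 314) came next. The genes share their libraries, so these SDs do not measure the spread of a difference between genes. The order of the genes was not tested. mt-Atp8 was the lowest protein-coding gene at 5.48 ± 1.85 CPM per kilobase, with mt-Nd4l at 6.05 ± 1.64.

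**Figure D4:**
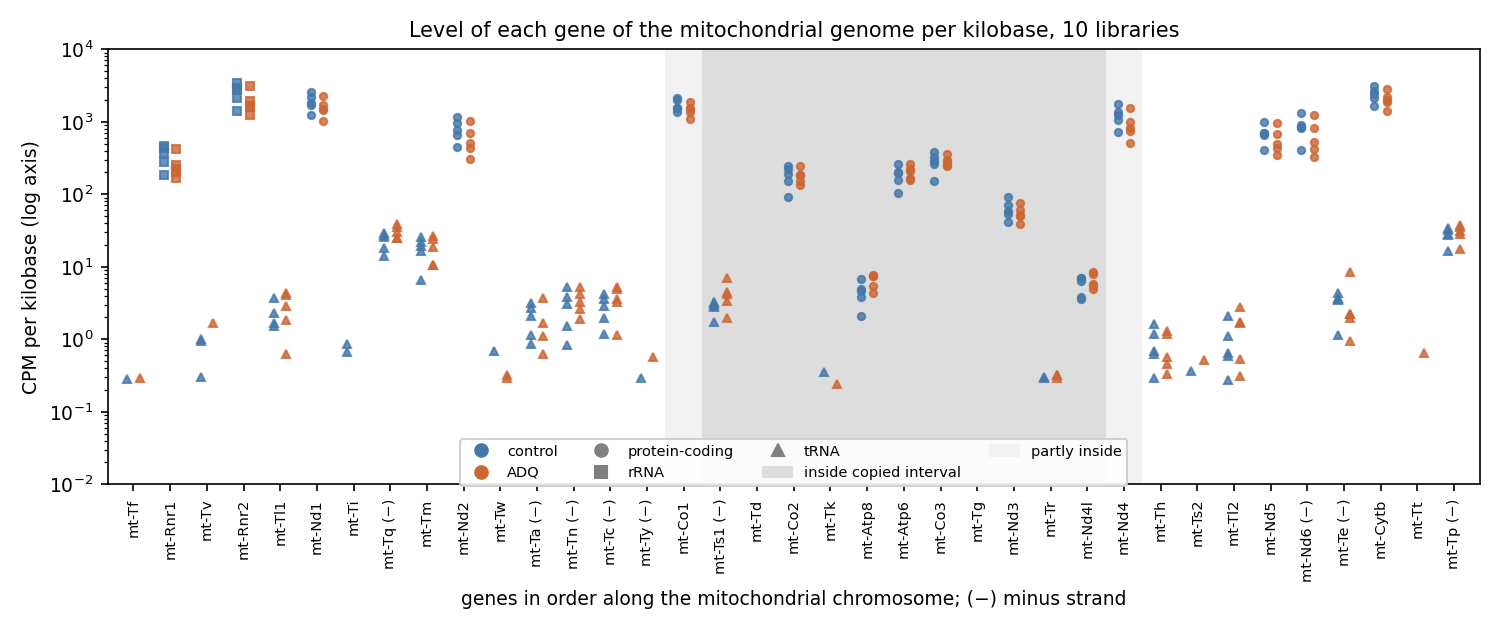
CPM per kilobase (log axis) of each of the 37 genes in their order along the mitochondrial chromosome, 1 point per library, control and ADQ side by side; values of 0 cannot be drawn on the log axis. The 6 protein-coding genes in the dark shaded copied interval lie at 5.48 to 286 on average, the protein-coding genes in the unshaded parts at 639 to 2225.

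The fold changes also differed by this position: the 5 genes outside the interval and the 2 partly inside all had values below 0 (-0.42 to -0.21), while of the 6 inside it 4 were above 0 and 2 below, with a median of 0.08. This is a count over genes that share libraries and was not tested.

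The 11 near-identical nuclear copies carried counts in every library, and some carried as many as the gene itself. For mt-Atp6, whose copy Gm10925 is listed on chromosome 1, the copy had 1.01 times the gene's counts over all libraries, with 0.931 to 1.13 times in single libraries. Gm28437, the copy of mt-Co3, had 1.06 times as many and Gm28661, the copy of mt-Co2, 1.05 times as many. In numbers, Gm28437 had 6559 to 13677 counts in controls and 10254 to 14063 in ADQ. For mt-Co1, which has bases in and beyond the interval, the 2 copies Gm29216 and Gm13340 held 14.5% of the summed counts of gene and copies. The copies' part of the sum was 50.3% for mt-Atp6, 51.4% for mt-Co3, 59.5% for mt-Co2 (with Gm28661 and Gm13341), 59.5% for mt-Nd4l and 22.3% for mt-Nd3, but 2.92% for mt-Nd4, 1.93% for mt-Nd2 and 1.56% for mt-Nd5. None of the copies found was one of mt-Atp8, but the 233 bases between the copies of mt-Co2 and mt-Atp6 on chromosome 1 match in number the 233 bases between the same points of the mitochondrial chromosome, where mt-Atp8 begins.

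**Figure D5:**
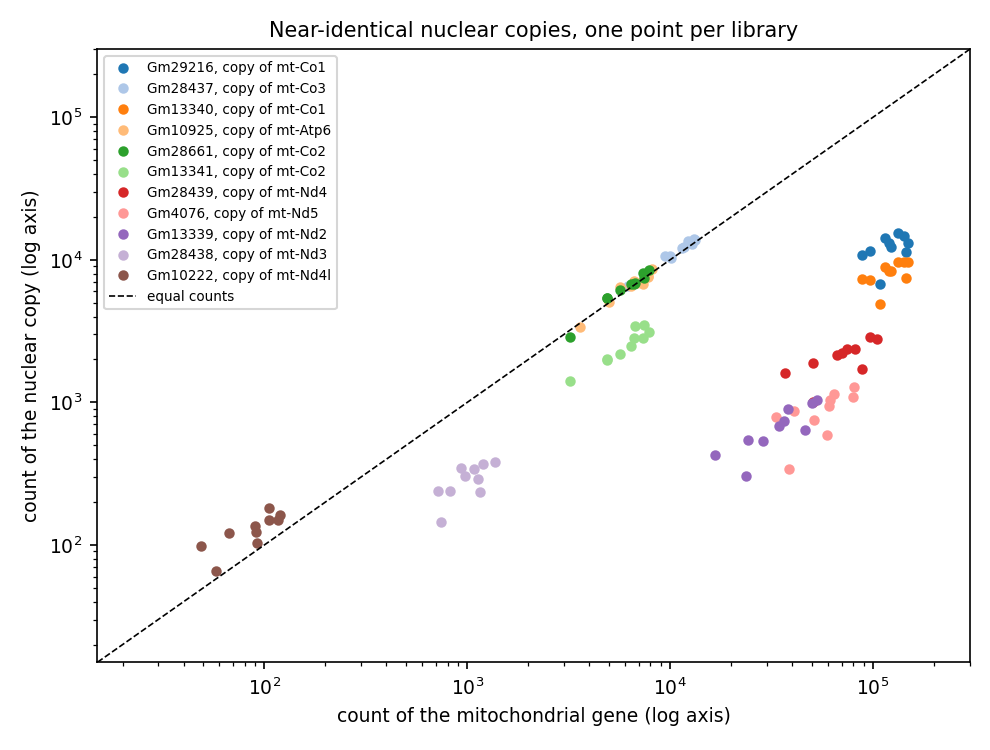
Counts of 11 near-identical nuclear copies (vertical log axis) against the counts of the mitochondrial gene (horizontal log axis), 1 point per library; the dashed line marks equal counts. The copies of mt-Co3, mt-Atp6 and mt-Co2 on chromosome 1 lie along the line, while those of mt-Co1, mt-Nd4, mt-Nd5 and mt-Nd2 lie far below it.

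How the authors' counting placed reads that match several loci was not given in the sources used here, so the counts of the 9 genes with a near-identical copy, and of the copies, are uncertain. With the copies added to the gene, mt-Co2 went from 181 to 448 CPM per kilobase and mt-Co3 from 286 to 587, values still under the 639 of mt-Nd5, the lowest gene outside the interval. Whether reads that match both places were left out or split was not tested. Between the groups the copies gave no call either: 17 were tested, 0 passed and the smallest adjusted p was 0.555 (edgeR). Together the 11 near-identical copies took 0.101 ± 0.0287% of all counts in controls and 0.108 ± 0.0165% in ADQ. With copies added to their genes, the smallest adjusted p among the members was 0.445 and the median fold change of the protein-coding genes moved from -0.21 to -0.19.

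The tRNA genes were at the edge of detection. Their 22 genes, 59 to 75 bases long, held 3213 counts over all 10 libraries, and mt-Tp, mt-Tq and mt-Tm alone held 78.4% of them. These 3 are shown whole with the anticodon in capitals, since they carry most of what was measured of this class.
mt-Tp, proline, chrM:15356-15422, minus strand: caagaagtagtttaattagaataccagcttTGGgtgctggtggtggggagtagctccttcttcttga
mt-Tq, glutamine, chrM:3772-3842, minus strand: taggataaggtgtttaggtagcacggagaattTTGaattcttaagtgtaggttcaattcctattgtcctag
mt-Tm, methionine, chrM:3845-3913, plus strand: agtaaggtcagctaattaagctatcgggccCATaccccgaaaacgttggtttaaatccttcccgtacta
The counts lay mostly on the minus strand. The 8 tRNA genes encoded there held 2417 counts, or 75.2%, with a median of 109.5 per gene, and 6 of the 8 could be tested. The 14 genes on the plus strand held 796 counts, of which 607 were on mt-Tm alone, with a median of 4.5 per gene, and mt-Tm was the only one tested. mt-Td and mt-Tg had 0 counts in all libraries, and a count of 0 allows up to 3 counts, or 0.006 CPM over the 10 libraries together (counting error only). With the strand setting unknown, the counts on a minus-strand tRNA can include plus-strand precursor.

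mt-Tq, for glutamine, was at 1.83, 1.30, 1.01, 1.96 and 2.10 CPM in controls 1 to 5 and at 2.77, 1.78, 2.52, 2.13 and 1.80 in ADQ 1 to 5. Each ADQ library was above the control mean of 1.64, yet the ranges overlapped. Its log2 fold change was 0.42 with an interval of -0.11 to 0.96 (adjusted p = 0.460, edgeR). mt-Tp, for proline, ran from 1.11 to 2.27 CPM in controls and from 1.18 to 2.53 in ADQ, with 0.13 (-0.43 to 0.69), and mt-Tm, for methionine, from 0.45 to 1.76 and from 0.72 to 1.84, with 0.01 (-0.80 to 0.81). The other 4 tested tRNAs had 106 to 119 counts each over all libraries. Their log2 fold changes were 0.57 (-0.33 to 1.47) for mt-Ts1, a serine tRNA, 0.41 (-0.64 to 1.47) for mt-Tc, for cysteine, 0.24 (-0.85 to 1.34) for mt-Tn, for asparagine, and -0.04 (-1.27 to 1.19) for mt-Te, for glutamate. In all, 6 of the 7 tested tRNAs had a positive estimate, and none passed the test. The interval of mt-Tq, the narrowest of the 7, covers folds from 0.923 to 1.94.

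Ratios within the mitochondrial genome do not depend on library scaling, and none of 3 differed between the groups. The large to small rRNA ratio per kilobase was 7.40 ± 0.466 in controls and 7.57 ± 0.230 in ADQ (SD, n = 5 each; p = 0.587, adjusted p = 0.587, exact two-sided permutation test over 252 assignments). It was the most even, between 6.61 and 7.94 in all libraries. The ratio of mt-Rnr2 to mt-Nd1, the first message after the rRNAs, was 1.33 ± 0.151 in controls and 1.19 ± 0.129 in ADQ (exact permutation p = 0.127, adjusted p = 0.381). ADQ 1, at 1.40, was above the other ADQ libraries, which lay between 1.08 and 1.20. Without ADQ 1 the log2 difference went from -0.17 to -0.23 and the unadjusted exact permutation p to 0.0317. The ratio of mt-Nd6 on the minus strand to mt-Cytb on the plus strand was 0.350 ± 0.0699 in controls and 0.307 ± 0.0958 in ADQ (exact permutation p = 0.389, adjusted p = 0.583). With 5 libraries against 5 the smallest p this test can give is 0.00794.

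Nuclear genes that serve the mitochondrial genome gave no call. Over 14 lists covering its transcription, RNA processing and modification, translation, regulation and the nuclear partners of its proteins, 273 genes were tested and 0 passed in edgeR, with 30, or 11.0%, at an unadjusted p under 0.05, beside 13.8% of all genes tested; 28 of the 30 were lower in ADQ. DESeq2 passed 1 of these genes, voom with quality weights 3 and the fit with the length slope as a covariate 0, where they called 773, 664 and 522 over all genes. The median log2 fold change of the 273 was -0.15, beside 0.01 for all genes, and 82.1% had an estimate below 0, beside 48.2% of all genes tested. These genes share their libraries, and their common direction was not tested. The levels of these genes also moved with the libraries' length slopes and pigment epithelium markers: Cox4i1, a subunit of complex IV, was lowest at 625 CPM in control 3 among the controls and at 511 in ADQ 3 among the ADQ libraries, which had the most positive slope of their groups and the lowest summed epithelial markers. With the slope as a covariate the median over the 273 genes was -0.13, and the part of the epithelial markers was not tested.

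The nuclear subunits of the respiratory complexes lay below 0 almost throughout, with no member passing. For complex I, 35 of 36 tested genes had an estimate below 0 (median -0.22). Ndufs3, a core subunit of its peripheral arm, was at 156 ± 15.8 CPM in controls and 125 ± 24.0 in ADQ (log2 fold change -0.32, adjusted p = 0.287, edgeR), and Ndufa9, an accessory subunit, gave -0.27. For complex III it was 9 of 9 (median -0.24), with Cyc1, cytochrome c1, at -0.30, and Uqcrc1 and Uqcrc2, its core proteins, at -0.22 and -0.17. For complex IV it was 9 of 10 (median -0.20), with Cox5b at -0.33, Cox7c at -0.30 and Cox4i1 at -0.30, and for ATP synthase 15 of 15 (median -0.20), with Atp5g1, of the rotor ring, at -0.35, Atp5h at -0.33 and Atp5d at -0.31. Complex II, which has no mitochondrially encoded subunit, gave 4 of 4 below 0 (median -0.13), with Sdhb at -0.28. The mitochondrially encoded partners outside the copied interval had estimates of -0.42 to -0.21. Inside it, mt-Nd3 and mt-Co2 were at -0.18 and -0.01. mt-Co3, mt-Atp6, mt-Nd4l and mt-Atp8 were at 0.02, 0.14, 0.23 and 0.54. The ATP synthase partners, mt-Atp6 and mt-Atp8, thus lay above 0, unlike the nuclear subunits of that complex. So did mt-Co3 and mt-Nd4l of the same interval, unlike most nuclear subunits of complexes IV and I. The interval of each of these estimates includes 0, and that of mt-Atp6 fell to -0.0157 with a single library left out.

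The mitochondrial ribosomal proteins showed the same direction without a call, with 75 of 78 estimates below 0 and a median of -0.19. Mrpl37 was at 61.3 ± 4.99 CPM in controls and 49.9 ± 6.40 in ADQ (log2 fold change -0.30, adjusted p = 0.208, edgeR), and Mrps7 and Mrpl38 gave -0.34 and -0.26. The machinery that makes and matures the transcripts lay closer to 0. Over 19 genes of transcription and replication the median was -0.03, over 20 of RNA processing -0.01 and over 19 of rRNA and tRNA modification -0.03. Within these, Mterf4, which takes part in assembly of the mitochondrial ribosome, had -0.35 (adjusted p = 0.210, edgeR), Twnk, the replicative helicase, -0.25, Hsd17b10, a subunit of mitochondrial RNase P, -0.31, and Trnt1, which adds CCA ends to tRNAs, 0.23. Translation factors had a median of -0.01, with Tufm, the elongation factor, at -0.31. Among 14 import and housekeeping genes, 13 were below 0 (median -0.17), with the prohibitin gene Phb at -0.34 and the outer membrane channel gene Vdac1 at -0.20. Of 8 regulators of mitochondrial biogenesis, 7 were above 0 (median 0.19), Gabpb1, a subunit of the transcription factor NRF-2, at 0.36. In the 11 stress-response genes, all below 0 (median -0.16), Chac1, which degrades glutathione, gave -1.38 (adjusted p = 0.135, edgeR; 1.99 ± 1.20 against 0.764 ± 0.214 CPM).

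The mitochondrial aminoacyl-tRNA synthetases, which charge the mitochondrial tRNAs, had a median of -0.05 over 20 genes, and 1 of them stood far above the rest in level. Lars2, the leucine enzyme, was at 13659, 9383, 8857, 13062 and 12909 CPM in controls 1 to 5 and at 11697, 8183, 5665, 7673 and 8210 in ADQ 1 to 5, while the next, Iars2, had 39.9 in controls and 42.4 in ADQ. Its order over libraries was much like that of mt-Rnr2, with control 1 highest and ADQ 3 lowest in both. Cox4i1, the summed pigment epithelium markers and the mitochondrial share had the same highest and lowest libraries, so this order is not particular to Lars2. The log2 fold change of Lars2 was -0.48 with an interval of -0.88 to -0.08 before adjustment (adjusted p = 0.277, edgeR). No transcript of Lars2 appeared among the copies found by alignment to the mitochondrial transcripts. That search took matches in the same orientation only, of at least 85% identity over 100 bases. Shorter, more diverged or antisense matches could not appear in it.

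The authors' deposited table, which lists 15860 genes, holds 16 of the 37 members. These are the protein-coding genes with mt-Tq, mt-Tp and mt-Tm, so neither rRNA gene is covered. By the authors' deposited table, none of these 16 had an adjusted p under 0.05, and the smallest was 0.144, for mt-Nd4. At the raw p of the authors' deposited table, mt-Nd4 (log2 fold change -0.51, p = 0.0313) and mt-Atp8 (0.61, p = 0.0400) were under 0.05. All 16 had the same sign of fold change in the authors' deposited table as in the edgeR fit of the same libraries.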

How the data were processed

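RNA of 5 control and 5 ADQ RPE/choroid samples was analysed. The authors deposited raw counts per Ensembl gene; the submitters' processing notes name GRCm38, bcl2fastq, DRAGEN, edgeR and limma without roles, and the counting rule, strand setting and treatment of multiply matching reads were not given in the sources used here. Log2 fold changes and p-values in the authors' deposited table were only read off. Of 55774 entries, 287 repeats were dropped. Counts were tested with edgeR 4.0.16 (TMM, filterByExpr with a minimum count of 10, robust quasi-likelihood fit, group only, Benjamini-Hochberg over all genes), checked on simulated data; limma 3.58.1 and DESeq2 1.42.0 served as alternatives. Copies were found with BLAST 2.17.0 (at least 85% identity over 100 bases, same orientation only) among GENCODE M21 transcripts. Depth was 43591245 to 64087660 counts. Named were all protein-coding and rRNA members, the 5 tRNAs of highest mean CPM and up to 5 more of smallest p, up to 3 genes of smallest p per nuclear list (1 of them is not reported here), and up to 6 copies of highest level of at least 1 CPM; the other copies named, Gm28438 among them, were chosen after their values were seen. Members and lists were chosen with earlier results of these data known. Fitted alternatives were other scalings, filters, tools, covariates, copies added and each library left out.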

Additional observations from a re-analysis of the deposited data

Results flagged for a closer look

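Of 58 groups of 5 libraries examined for a sample far from the others, 2 were flagged, and about 5% of groups would be by chance. Both concern mt-Te, the glutamate tRNA gene, which had 108 counts in all. Control 3 was low at 0.0780 CPM, with the other controls at 0.237 to 0.298. ADQ 1 was high at 0.584 CPM, with the other ADQ libraries at 0.0659 to 0.155. The log2 fold change of mt-Te ran from -0.78 to 0.18 when single libraries were left out.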

How the results depend on the processing

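Under 24 alternatives the number of mitochondrial genes that passed stayed at 0 except with the replicate number as a block, where 1 passed (mt-Nd4, adjusted p = 0.0496), and 16 of 22 tested members kept one sign. With that block the nuclear lists gave 1 synthetase, 10 ribosomal protein, 9 complex I, 3 complex III, 2 complex IV, 4 ATP synthase and 2 import and housekeeping genes. The numbers only name samples: same-number correlations were 0.0334, 0.0298, 0.163, 0.015 and -0.113, and only control 3 correlated best with its own number. voom gave 1 ribosomal protein, 1 complex I and 1 housekeeping gene, and DESeq2 1 stress-response gene. The cause was not tested. Genes called overall ranged from 78 (without control 4) to 773 (DESeq2), beside 171, with 694 under the block, 664 with voom, 522 with transcript length as a covariate, 357 without control 5, and 81, 87, 96 and 99 without ADQ 2, ADQ 4, control 1 and ADQ 3.

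Signs reversed only near 0. With library size alone, the block and the length covariate the log2 fold changes were 0.0742, 0.0415 and 0.144 for mt-Co2, 0.0478, 0.00298 and 0.0938 for Gm29216, 0.0629, 0.0195 and 0.105 for Gm28437, 0.0765, 0.0262 and 0.102 for Gm13340, and 0.0273, 0.00137 and 0.0990 for Gm13341. Library size alone shifted the median of all genes to 0.10. mt-Te gave 0.0175 with library size alone, 0.0706 with the rod covariate and 0.0341 with the length covariate. mt-Co3 gave -0.0209 with the rod covariate, -0.00248 with the muscle covariate and -0.00188 with copies added. mt-Tm gave -0.00338 with upper quartile scaling and -0.000464 with DESeq2. Leaving out single libraries gave ranges of -0.18 to 0.14 for mt-Co2, -0.0157 to 0.297 for mt-Atp6, -0.13 to 0.16 for mt-Co3, -0.00889 to 0.27 for mt-Tp, -0.21 to 0.17 for mt-Tm, -0.78 to 0.18 for mt-Te, -0.202 to 0.0859 for Gm29216, -0.18 to 0.10 for Gm28437, -0.15 to 0.12 for Gm13340, -0.00768 to 0.31 for Gm10925, -0.16 to 0.15 for Gm28661 and -0.22 to 0.14 for Gm13341. The log2 difference in the ratio of mt-Rnr2 to mt-Rnr1 ran from -0.00543 (without control 4) to 0.0559, and that of mt-Rnr2 to mt-Nd1 from -0.23 (without ADQ 1, past 0.05 before adjustment) to -0.11. Depth limits the tRNAs, of which 10 had under 10 counts.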
